A study of Mus musculus with 6 samples.

Results

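The insulin-like growth factor axis was followed here through 10 genes, the ligands Igf1 and Igf2, the receptor Igf1r and the binding proteins Igfbp1 to Igfbp7. Every probe set that the array annotation assigns to one of these symbols alone was taken, 27 of the 45037 probe sets tested. The genes were selected on the log2 difference of Igfbp3 between miR-200 and control cells, already known to be large, together with its family, so the values of all 10 genes are given as a description and not as a test. The cells were 344SQ, a mass population of mouse lung adenocarcinoma cells grown from a subcutaneous tumour of one mouse of the genotype p53R172H∆g/+ K-rasLA1/+, which both groups therefore share. The groups compared, with 3 cultures each, were 344SQ cells transduced with a lentivirus carrying the miR-200b-200a-429 cluster (miR-200 A, B and C) and 344SQ cells with a control vector (control A, B and C). Both were stable GFP-positive pools kept in puromycin and medium with 10% fetal bovine serum, and 1 array was run per culture. Whether cultures of a group came from separate transductions is not in the labels, so a standing difference between the pools cannot be told apart from an effect of the microRNAs.

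Igf1 and Igf2 act through Igf1r, a receptor tyrosine kinase that passes the signal through Irs adaptor proteins to the PI3 kinase and MAP kinase routes. Igfbp1 to Igfbp6 bind the ligands with high affinity and can hold them away from the receptor or prolong their stay, whereas Igfbp7 is a related secreted protein of low affinity. Igfbp3 is the main carrier of these growth factors in blood, where it forms a ternary complex with ligand and the Igfals protein. The serum in the medium brings growth factor of its own, which an array of cellular RNA does not measure.

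The mature microRNAs of the transduced cluster are shown because they define the treatment, with the seed, bases 2 to 8, in capitals (RefSeq, GRCm38.p6, chromosome 4, minus strand).
mmu-miR-200b-3p: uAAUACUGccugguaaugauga
mmu-miR-429-3p: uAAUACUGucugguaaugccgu
mmu-miR-200a-3p: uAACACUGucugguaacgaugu
The first and the second share the seed AAUACUG, and mmu-miR-200a-3p has the seed AACACUG. The microRNAs themselves were not analysed here.

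Values are log2 signals after quantile normalization, means are given with SD and n = 3 per group, and each difference, miR-200 minus control, stands with its standard error from limma. A probe set past the threshold had an adjusted p under 0.05 over all 45037 probe sets. Background was gauged by the highest value of the 3 TrpnX control probe sets, bacterial sequences absent from mouse cells, which was 5.28. The medians of the deposited arrays lay between 6.32 and 6.41, so a mean above this gauge can still be low. It does not by itself show that a gene is expressed. Levels of different probe sets are not comparable on these arrays, so no order of genes by level is given. The epithelial markers Epcam, Cdh1, Krt8, Krt18 and Krt19 all lay above the gauge in both groups. Of 4 lung epithelial markers, Nkx2-1 and the surfactant gene Sftpb lay above it in both groups and Sftpc and Scgb1a1 under it in both. Sftpb averaged 6.54 ± 0.03 in miR-200 cells and 12.58 ± 0.38 in control cells (adjusted p = 0.00249 in limma). Of the markers of other cell types, the fibroblast genes Col1a1, Col1a2 and Lum and the endothelial genes Cdh5 and Tek had means above the gauge in both groups, and Pdgfra, Pdgfrb, Dcn, Pecam1 and Kdr had means under it. Of 4 leukocyte genes, 4 lay above it in miR-200 cells and 3 in control cells. The medians of the 9 proliferation genes measured were 9.0, 12.15 and 12.31 in miR-200 A, B and C, against 11.84, 9.08 and 11.80 in control A, B and C, so that 1 array of each group, miR-200 A and control B, stood apart.

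Igfbp3 was the member with the large difference, and both of its probe sets showed it. The probe set 1423062_at read 12.16, 11.18 and 11.42 in miR-200 A, B and C, against 7.21, 6.73 and 6.85 in control A, B and C. The lowest miR-200 array lay 3.97 above the highest control array. The means were 11.59 ± 0.52 in miR-200 cells and 6.93 ± 0.25 in control cells, a difference of 4.66 ± 0.30 and 25.2-fold higher. The second probe set, 1458268_s_at, read 11.85, 10.97 and 11.24 in miR-200 cells and 7.03, 6.55 and 6.79 in control cells, a difference of 4.57 ± 0.27 and 23.7-fold higher. In Affymetrix naming the ending s marks probes that may also match other transcripts. In both probe sets miR-200 A was the highest array, and control B, the other array that stood apart, was the lowest. Only 5 of 18193 genes, each represented by its brightest probe set, had a larger positive difference. These 2 were the only member probe sets past the threshold, 2 higher and 0 lower of 27, against 0.744% of all probe sets past it, 0.258% higher and 0.486% lower. The median difference of the 27 was 0.32, against 0.03 over all probe sets. Igfbp4 gives 6 of the 27 and Igf1r 5, so this median weighs those genes most. It is no measure of a shift over the genes of the axis. In a bulk culture more expressing cells and more RNA per cell cannot be told apart. Neither Igfbp3 probe set passed without miR-200 C, without control A or without control C. In those fits 0.12%, 0.0711% and 0.127% of all probe sets passed, and the Igfbp3 differences lay between 4.57 and 4.80. With control B and miR-200 A both left out, 1458268_s_at alone of the Igfbp3 probe sets passed, against 0.229% of all probe sets. In that fit the difference was 4.27 for the brighter probe set and 4.20 for the other.

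**Figure D1:**
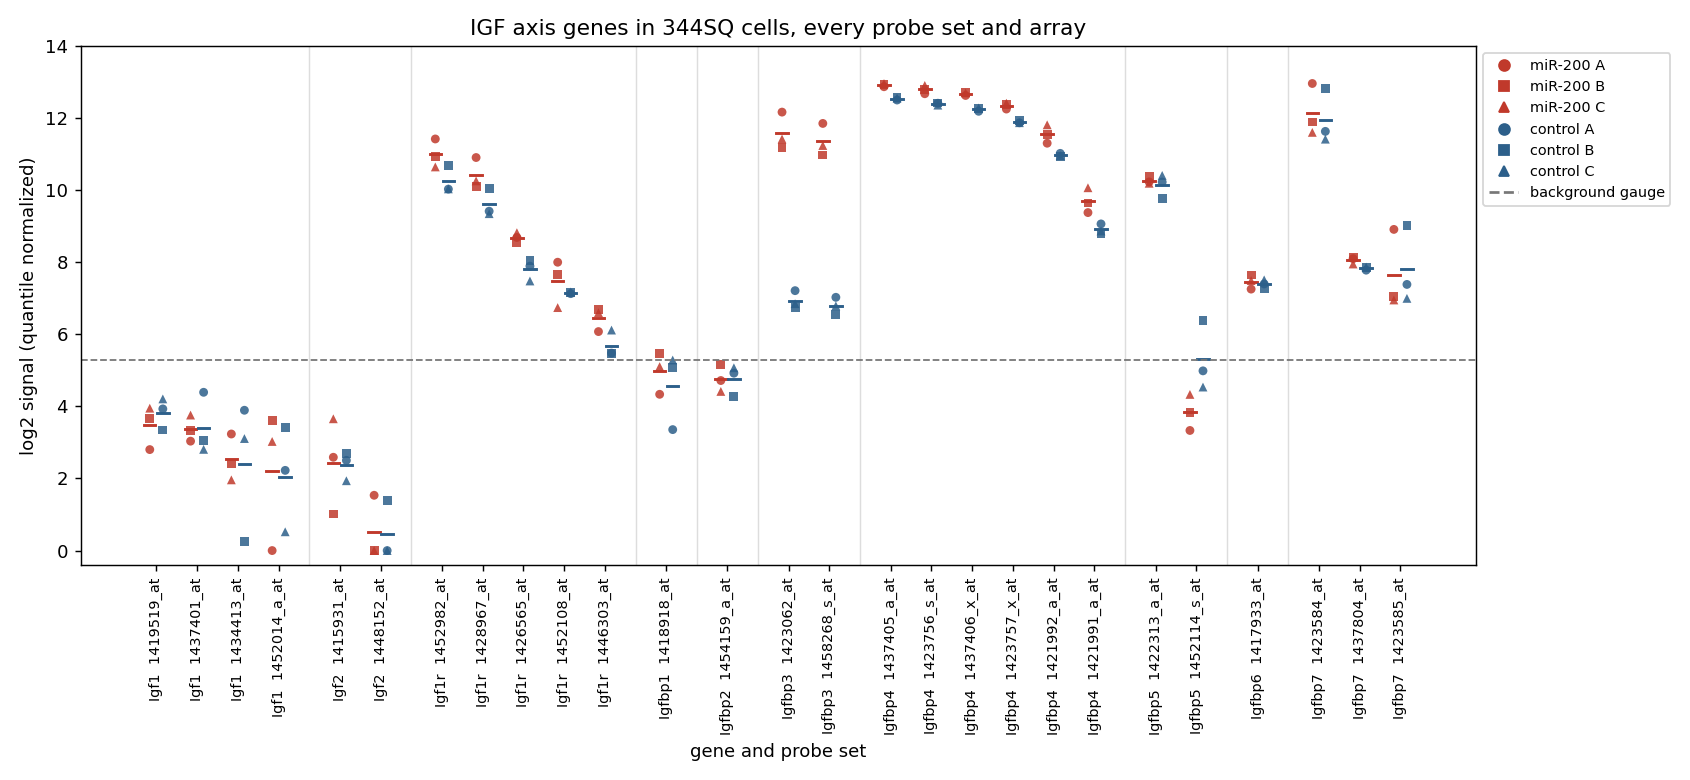
Log2 signal of every probe set of the 10 genes on every array, miR-200 arrays in red left of control arrays in blue, with a bar at each group mean and the background gauge as a dashed line. The 2 probe sets of Igfbp3 have miR-200 arrays between 10.97 and 12.16 and control arrays between 6.55 and 7.21, while the points of Igf1 and Igf2 all lie under the gauge.

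The stretch before the start of Igfbp3 is shown because this gene differed, with the E-box CAGGTG in capitals. Its neighbour Igfbp1 did not pass, but had means under the gauge in both groups, so it is no contrast. Zeb and Snail family repressors are known to bind the E-box CACCTG, of which CAGGTG is the opposite strand. The 250 bases at chr11:7213924-7214173 (RefSeq, GRCm38.p6, minus strand, 5′ to 3′) read as follows.
Igfbp3: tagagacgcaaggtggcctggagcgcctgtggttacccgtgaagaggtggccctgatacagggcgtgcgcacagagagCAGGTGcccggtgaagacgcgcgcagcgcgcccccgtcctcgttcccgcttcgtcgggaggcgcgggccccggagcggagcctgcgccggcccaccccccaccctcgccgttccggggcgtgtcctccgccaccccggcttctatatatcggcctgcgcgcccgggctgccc
The E-box begins 172 bases before the start. Searched on both strands, CACCTG occurred in 1 of the 14 windows of this length that the 10 genes have, and in 17.2% of all 32851 windows. The match describes these letters and does not show that any factor binds there. The Igfbp3 window had 73.2% G and C, against a median of 52.4% over all windows.

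Igfbp3 and Igfbp1 lie next to each other on chromosome 11, and the other genes measured near them are described here. Of the 3 nearest measured protein-coding genes on each side, 0 of 6 passed the threshold in limma, and 0 of 6 had an unadjusted p under 0.05, against 0.945% and 14.8% of all genes. With so few genes, 0 of 6 lies near these shares and is no result about the locus. Tns3, which encodes a focal adhesion protein, averaged 11.84 ± 0.12 in miR-200 cells and 11.99 ± 0.07 in control cells (adjusted p = 0.674). Hus1, a DNA damage checkpoint gene, averaged 8.62 ± 0.33 in miR-200 cells and 8.69 ± 0.03 in control cells (adjusted p = 0.916). Wap, a milk protein gene, differed by -0.31 ± 0.17 (adjusted p = 0.482). For each of Tns3, Hus1 and Wap, the miR-200 mean and the control mean of that gene lay within 0.31 of each other on the log2 scale. Adcy1, Ramp3 and Sun3 had means under the gauge in both groups. Of the genes under the gauge, Adcy1 had all miR-200 arrays below all control arrays, a difference of -0.62 ± 0.30 within background signal.

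Igfbp4, a binding protein that mostly restrains its ligands, read higher in every miR-200 array than in every control array in all 6 of its probe sets, by small amounts. The brightest, 1437405_a_at, read 12.87, 12.94 and 12.96 in miR-200 cells and 12.50, 12.57 and 12.55 in control cells, a difference of 0.38 ± 0.11 and 1.30-fold higher. The dimmest, 1421991_a_at, read 9.38, 9.64 and 10.07 in miR-200 cells and 9.06, 8.81 and 8.87 in control cells, a difference of 0.78 ± 0.21 and 1.72-fold higher. The other 4 differed by 0.40 to 0.58. Among them 1423756_s_at has the ending s, and 1423757_x_at and 1437406_x_at the ending x, so the 6 may not be equally specific. The 6 probe sets measure 1 gene and are not replicates, and 0 of them passed the threshold. Among all 27 member probe sets, 11 had all miR-200 arrays above all control arrays and 1 had them below, against 11.6% and 9.76% of all probe sets. The 11 were these 6 of Igfbp4, 2 of Igfbp3, 2 of Igf1r and 1 of Igfbp7, so repeat probe sets of a gene weigh in this count.

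Igf1r, the receptor, had positive differences in all 5 of its probe sets and 0 past the threshold. The brightest, 1452982_at, read 11.42, 10.94 and 10.64 in miR-200 cells and 10.03, 10.67 and 10.03 in control cells, a difference of 0.76 ± 0.29. Control B, at 10.67, reached just above miR-200 C, so the groups overlapped. The groups did not overlap for 1428967_at, at 10.90, 10.10 and 10.26 in miR-200 cells and 9.41, 10.04 and 9.35 in control cells, a difference of 0.82 ± 0.30. They were also apart for 1426565_at, at 8.69, 8.53 and 8.82 in miR-200 cells and 7.89, 8.05 and 7.48 in control cells, a difference of 0.87 ± 0.19 and 1.83-fold higher. The remaining probe sets, 1446303_at and 1452108_at, overlapped and differed by 0.77 ± 0.27 and 0.32 ± 0.34. In the brightest pair of probe sets the highest array of each group was one that stood apart, miR-200 A and control B.

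**Figure D2:**
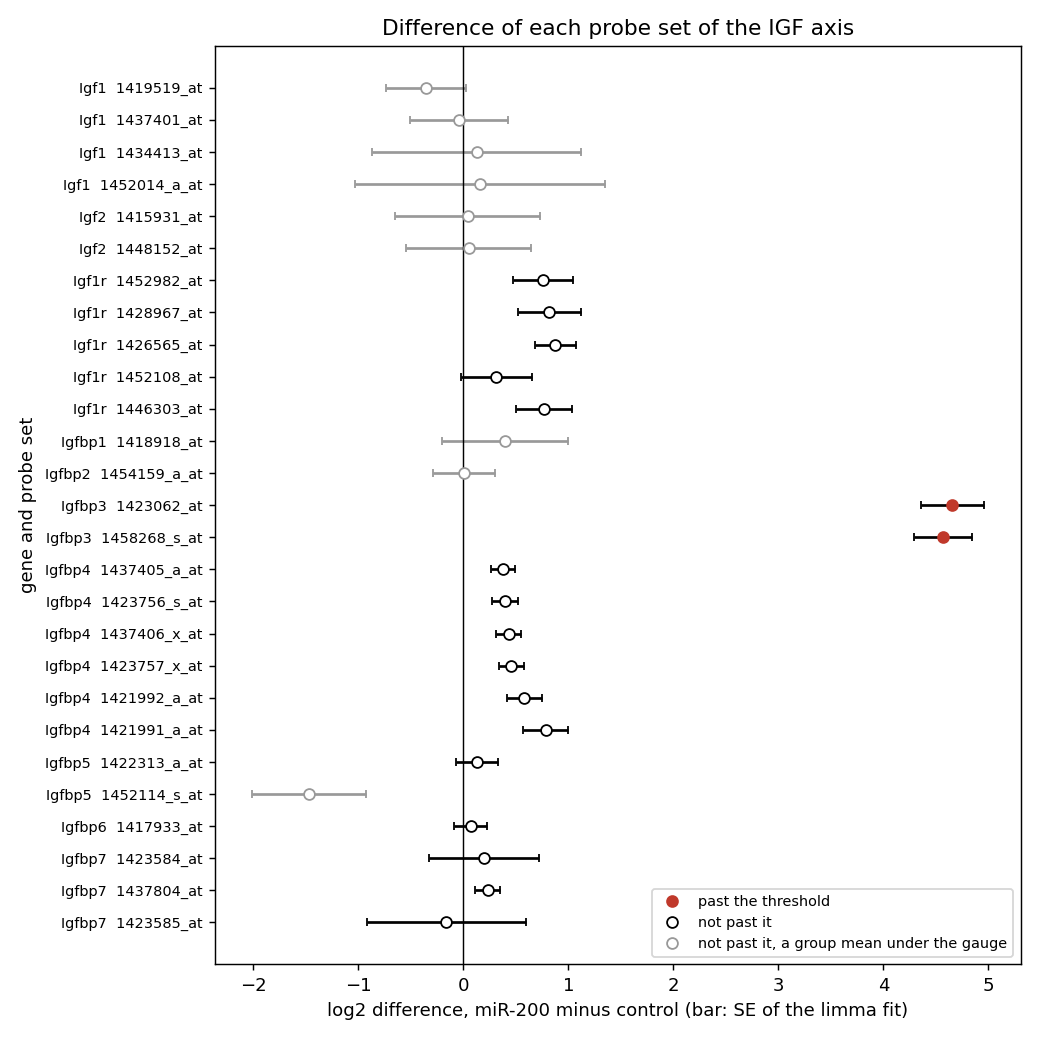
Log2 difference, miR-200 minus control, of each probe set of the 10 genes with its standard error from limma as a bar. Both Igfbp3 probe sets lie near 4.6, those of Igfbp4 lie between 0.38 and 0.78 and those of Igf1r between 0.32 and 0.87.

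The counts for Igfbp4 and Igf1r differed between settings. Of the member probe sets, 12 with higher and 1 with lower values in miR-200 cells had an unadjusted p under 0.05, against 7.18% and 6.93% of all probe sets. Those higher were the 2 of Igfbp3, the 6 of Igfbp4 and 4 of Igf1r. Probe sets of a gene are not replicates, so this count is no measure of a shift over the genes of the axis. With a 2-level term for miR-200 A and control B alone, 3 of 27 were past the threshold, the 2 of Igfbp3 and 1428967_at of Igf1r, against 2.10% of all probe sets. With the dimmest 40% of probe sets dropped and no such term, the 2 of Igfbp3 were past it, against 3.42% of those tested. With the term and without the dimmest 40% of probe sets, 12 of the 18 member probe sets kept were past the threshold, all 12 higher, against 17.0% of all probe sets past it and 8.03% past it as higher. They were the 2 of Igfbp3, the 6 of Igfbp4 and 4 of Igf1r. Because this array term came out of the data it is tested on, its p-values are likely too small, by an amount not known here.

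Igfbp7, the low-affinity relative, followed the arrays that stood apart in its brightest and its dimmest probe set. The brightest, 1423584_at, read 12.96, 11.89 and 11.60 in miR-200 A, B and C, against 11.63, 12.83 and 11.41 in control A, B and C. The dimmest, 1423585_at, read 8.91, 7.05 and 6.95 in miR-200 cells and 7.38, 9.02 and 7.0 in control cells. In both, miR-200 A and control B were the highest arrays of their groups, by 1.21 and 1.31 over the mean of the other arrays for 1423584_at and by 1.91 and 1.83 for 1423585_at. The group differences, 0.19 ± 0.52 and -0.16 ± 0.76, were smaller than the spread between cultures. On the same arrays the median of the proliferation genes was lowest, 9.0 in miR-200 A and 9.08 in control B, and the summed linear signal of the 9 genes ranged from 10774 to 42841 in miR-200 cells and from 9760 to 34779 in control cells. The median of the 4 leukocyte genes was highest there, 7.21 in miR-200 A and 7.26 in control B. Of the 4, Cd68, a lysosomal protein gene of macrophages, was far higher on these arrays, at 8.98, 5.73 and 5.97 in miR-200 A, B and C, against 6.81, 8.87 and 6.46 in control A, B and C. Adgre1 was highest of the miR-200 arrays on miR-200 A, at 9.04, but lowest of the control arrays on control B, at 8.61. Ptprc, the defining gene, averaged 5.50 in miR-200 cells and 5.60 in control cells, close to the gauge. It was highest of the control arrays on control B, at 5.91, but not of the miR-200 arrays on miR-200 A, at 5.44. Cd3e was highest of its group on neither array. The summed linear signal of the 4 genes ranged from 522 to 1114 in miR-200 cells and from 629 to 953 in control cells. The part of either list in the Igfbp7 values was not tested. The third probe set, 1437804_at, did not follow these arrays and read 8.10, 8.13 and 7.95 in miR-200 cells and 7.78, 7.84 and 7.86 in control cells, a difference of 0.23 ± 0.12.

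**Figure D3:**
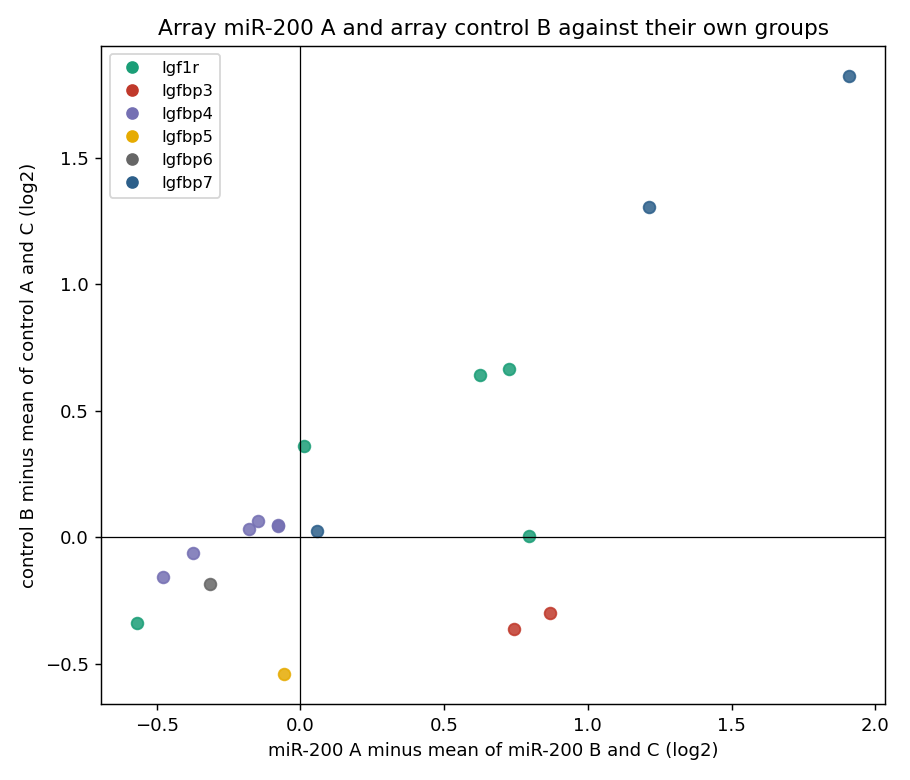
Deviation of array miR-200 A from the mean of miR-200 B and C (x axis) against that of control B from the mean of control A and C (y axis), both in log2 units, for the 18 probe sets with both group means above the gauge. The 2 points of Igfbp7 at the upper right have 1.21 and 1.91 on the x axis, and the 2 points of Igfbp3 have positive x and negative y values.

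Of the 18 member probe sets with both group means above the gauge, 12 deviated the same way on miR-200 A and control B and 6 opposite ways. Igfbp3 belonged to the second kind, at 0.87 on miR-200 A and -0.30 on control B for its brighter probe set.

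Igfbp5 and Igfbp6, binding proteins of which Igfbp6 prefers Igf2, did not pass. The brighter Igfbp5 probe set, 1422313_a_at, read 10.23, 10.38 and 10.19 in miR-200 cells and 10.22, 9.77 and 10.41 in control cells, with groups that overlapped. The dimmer one, 1452114_s_at, read 3.33, 3.84 and 4.33 in miR-200 cells and 4.99, 6.39 and 4.54 in control cells, where control B alone lay above the gauge. Its groups did not overlap, but with the miR-200 mean under the gauge the difference of -1.47 ± 0.54 (adjusted p = 0.321 in limma) bounds the fold only as at least 1.02-fold lower in miR-200 cells. The differences of the 2 probe sets of Igfbp5 had opposite signs, and the dimmer one has the ending s, for probes that may also match other transcripts. Igfbp6 read 7.25, 7.65 and 7.49 in miR-200 cells and 7.40, 7.27 and 7.51 in control cells, a difference of 0.07 ± 0.16.

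The ligands and the binding proteins Igfbp1 and Igfbp2 had means under the gauge in both groups, in 8 probe sets, so no fold is given for them. The 4 probe sets of Igf1 read between 0 and 4.39, and the 2 of Igf2 between 0 and 3.66, with overlapping groups throughout. Igfbp1 read 4.34, 5.47 and 5.10 in miR-200 cells and 3.36, 5.07 and 5.29 in control cells, so that single arrays of both groups reached the gauge. Igfbp2 read 4.72, 5.16 and 4.41 in miR-200 cells and 4.92, 4.28 and 5.07 in control cells. Low signal on these probe sets does not show that the transcripts were absent.

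Other genes of the pathway, taken from lists by role drawn up with earlier results of these data known, mostly did not pass. Of 67 listed genes 61 had a probe set of their own, and 0 were higher and 1 lower past the threshold, against 0.945% of all genes called in either direction. The median difference over the 61 was 0.06, against 0.0014 over all genes. The groups did not overlap for 9 with higher and 6 with lower values in miR-200 cells, beside 23.5% of all genes in either direction.

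Kazald1, a secreted relative of the binding proteins, was the gene that fell. It read 6.02, 6.18 and 5.94 in miR-200 cells and 7.30, 7.19 and 7.05 in control cells. Its difference was -1.14 ± 0.14, 2.20-fold lower (limma, adjusted p = 0.0431), and it was lower in all 3 miR-200 cultures. The call was lost in the values as deposited (adjusted p = 0.0515) and whichever 1 of the 6 arrays was left out, and over 15 alternatives the adjusted p ranged from 0.00279 to 0.312. It was 1 of 9 proteins related to the binding proteins, of which 0 passed as higher.

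Among receptors and cell surface partners 0 of 5 passed in limma, and 0 had an unadjusted p under 0.05. Of all genes 0.945% passed and 14.8% had such a p, so counts in lists this short are no result about the lists. Igf2r, which clears Igf2 from the cell surface, averaged 9.61 ± 0.13 in miR-200 cells and 9.36 ± 0.14 in control cells (adjusted p = 0.517). Insr, the insulin receptor, averaged 8.42 ± 0.64 in miR-200 cells and 8.52 ± 0.42 in control cells (adjusted p = 0.941). Of the ternary complex genes, proteases and protease inhibitors 0 of 9 passed, and 1 was higher at an unadjusted p under 0.05. That gene was Htra1, a secreted protease that cleaves binding proteins, at 12.00, 11.82 and 11.75 in miR-200 cells and 10.17, 11.55 and 10.40 in control cells. Its difference of 1.15 ± 0.38 did not pass (adjusted p = 0.282), and control B lay more than 1 above the other control arrays. Pappa and Pappa2, proteases of the binding proteins, differed by 0.15 ± 0.18 and 0.26 ± 0.18, and Stc2, an inhibitor of Pappa, by 0.04 ± 0.21. Igfals was under the gauge in both groups.

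The genes that bind Igf2 mRNA, Igf2bp1 and Igf2bp3, differed by 0.19 ± 0.22 and 0.04 ± 0.17, and neither passed in limma or had an unadjusted p under 0.05. Of 30 intracellular signalling genes 0 passed in limma, while 3 higher and 4 lower ones had an unadjusted p under 0.05. The shares of all genes were 0.945% and 14.8% in either direction, and the counts of the lists are given as a description. The adaptor Irs1 read 10.60, 9.54 and 9.65 in miR-200 cells and 9.07, 9.28 and 8.65 in control cells, a difference of 0.93 ± 0.34 (adjusted p = 0.321). The adaptor Irs2 differed by -0.58 ± 0.27 (adjusted p = 0.411) and its groups overlapped. Of the growth hormone input genes 0 of 5 passed, and 1 was higher at an unadjusted p under 0.05. It was Socs2, named after its values were seen, a feedback inhibitor of the growth hormone receptor. Socs2 read 11.40, 11.19 and 11.14 in miR-200 cells and 9.02, 10.03 and 8.89 in control cells, a difference of 1.93 ± 0.33 (adjusted p = 0.0905). Over 15 alternatives its adjusted p ranged from 0.00194 to 0.322. The insulin gene Ins2 lay under the gauge in both groups.

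**Figure D4:**
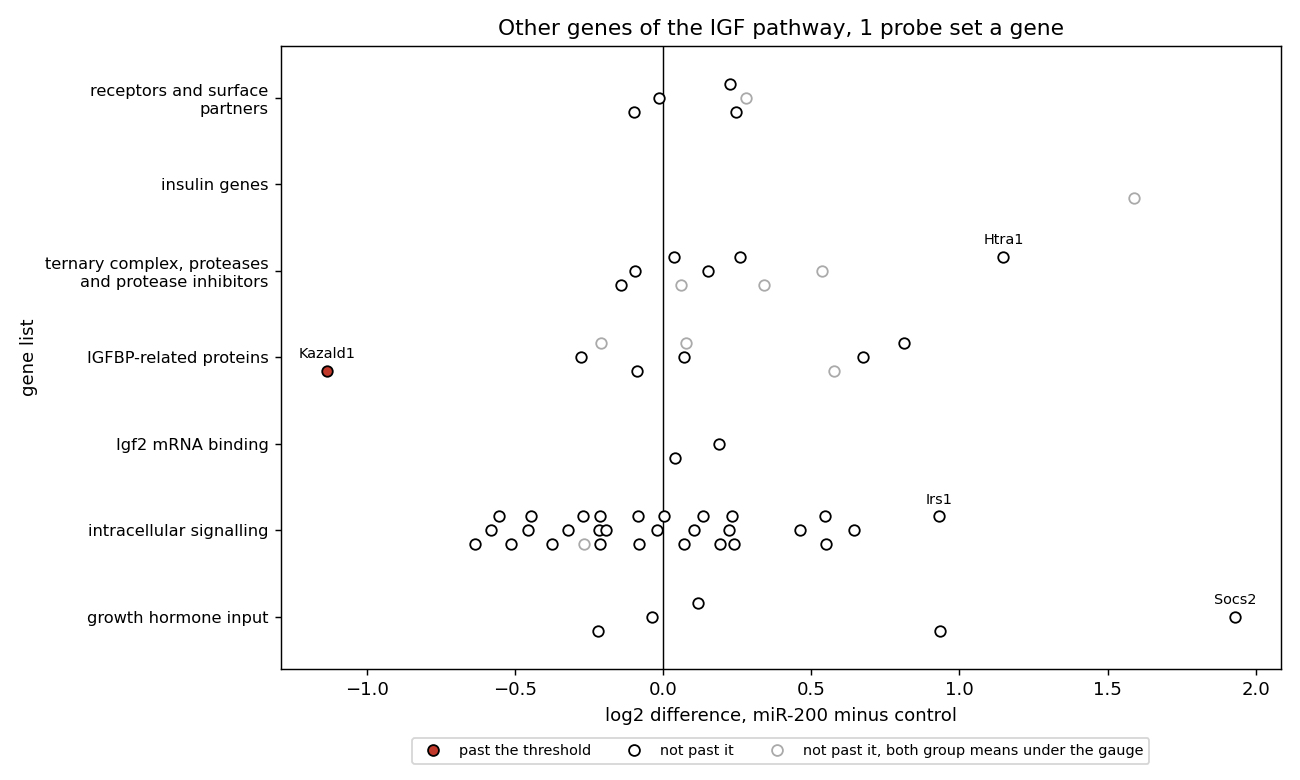
Log2 difference, miR-200 minus control, of 61 other pathway genes in 7 lists by role, 1 probe set a gene, with the gene past the threshold filled. Kazald1 at -1.14 is the filled point, and Socs2 at 1.93 lies farthest to the right.

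The genes with the profile most like that of Igfbp3 were sought by the root mean square difference between profiles over the 6 arrays, each profile being the log2 value minus the control mean. The 5 nearest were Cldn7 at 0.43, Macc1 at 0.56, Serinc2 at 0.57, Cldn3 at 0.60 and Sgcb at 0.78. The control means of Macc1 and Serinc2, 3.96 and 3.20, lay under the gauge, so their distances and their places in this order rest in part on background signal. Cldn7 and Cldn3 encode tight junction claudins, and Sgcb a sarcoglycan. Like Igfbp3, Cldn7 was highest on miR-200 A, at 10.53 against 9.77 and 9.55 on miR-200 B and C, with control arrays at 5.66, 5.26 and 6.21. This measure was chosen with Igfbp3 known to be far higher in miR-200 cells, so it picks genes with differences of a like size.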

How the data were processed

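RNA of 6 cultures was measured on Affymetrix mouse arrays with biotin-labelled cRNA, per the labels' protocols. The deposited table holds log2 signals of the authors for 45101 probe sets; its summarisation and normalization are not given in the sources used here, and the scale was read from the values, since 2 raised to each is a number with 2 decimals. The array medians spanned 0.092 and the interquartile ranges 0.174, above the 0.1 allowed, so the arrays were quantile normalized. The 64 control probe sets were left out. Symbols came from the platform annotation, updated through the RefSeq gene table of GRCm38.p6. The fit was limma 3.58.1 (lmFit and eBayes, two-sided) in R 4.3.3 on all 45037 probe sets without covariates, adjusted by Benjamini-Hochberg. It was tried on simulated data with independent noise, which hold no arrays that stand apart as miR-200 A and control B do. That trial therefore does not bear on those arrays. With 3 arrays per group, the number of arrays limits the precision.

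Members, lists and the gauge were chosen with earlier results of these data known. The named genes are all member probe sets, pathway genes past the threshold (up to 4 each way), 13 pathway genes fixed by name, the 6 neighbours of Igfbp3 and the 5 nearest profiles. Of the 13, Igf2bp2 and H19 were not analysed here, nor were 4 other listed genes. The alternatives were the deposited values, the arrays centred on their medians, a filter that drops the dimmest 40% of probe sets, a variance trend, array weights, the letter as a replicate block, a term for or omission of control B and miR-200 A, the term without the dimmest 40%, gene values averaged over probe sets, and each array left out. The spread behind each p-value is that between cultures, which may be technical.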

Additional observations from a re-analysis of the deposited data

How the results depend on the processing

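Of the 27 member probe sets 2 passed in the reported setting, against 0.744% of all probe sets. The count became 0 with the letter as a replicate block (5 had an unadjusted p under 0.05 in limma), where 0% of all probe sets passed. It was 1 without control B and miR-200 A (0.229% of all probe sets) and 3 under the 2-level array term (2.10%). It was 12 when the dimmest 40% of probe sets were dropped as well (17.0%), which left 18 to test. That filter alone gave 2 (3.42%). Without 1 array the member count ranged from 0 to 2, and the share from 0.0711% to 0.728%. The difference of Igfbp3 ranged from 4.20 to 4.86 over 30 values of its probe sets, that of Igfbp4 from 0.29 to 0.94 and that of Igf1r from 0.050 to 1.04, with 0 changes of sign. Of the 61 pathway genes 1 passed. The count became 0 in the values as deposited, 2 without the dimmest 40%, 3 with the variance trend, 2 with array weights, 0 with the replicate block (9 had an unadjusted p under 0.05), 2 with the 2-level term, 0 without both arrays and 12 when the term was joined to the filter. Without 1 array it ranged from 0 to 1. The neighbours of Igfbp3 gave 0 throughout. Apart from fewer probe sets or arrays tested, the cause was not tested. Deviations from the group means correlated at -0.58 between both A arrays, -0.67 between both B arrays and 0.43 between both C arrays. Between control B and miR-200 A they correlated at 0.71. The labels do not say that a letter marks a shared batch, so the block is no pairing by design. Signal under the gauge limits 9 of the 27 member probe sets.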

Other observations

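A further fit had the 2-level term for control B and miR-200 A and left out the dimmest 40% of probe sets. In it 12 of 52 pathway genes passed in limma, 8 higher and 4 lower. Of all probe sets 17.0% passed in either direction and 8.03% as higher, shares over probe sets and not over genes. The 12 are not far above that share, so they are listed as a description and are no result about the pathway. The higher genes were Socs2 (1.93 ± 0.19), Htra1 (1.15 ± 0.22), the growth hormone receptor Ghr (0.93 ± 0.14), Irs1 (0.93 ± 0.17), the matricellular gene Ccn2 (0.67 ± 0.14), the adaptor Grb10 (0.64 ± 0.15), the lipid phosphatase Inppl1 (0.55 ± 0.10) and Pik3r3 (0.55 ± 0.14), a regulatory subunit of PI3 kinase. The lower genes were Kazald1 (-1.14 ± 0.12), Rheb (-0.63 ± 0.12), the small GTPase that activates mTOR, the adaptor Shc1 (-0.51 ± 0.12) and Eif4ebp1 (-0.46 ± 0.11), a translation repressor that mTOR phosphorylates. Values are log2 differences, miR-200 minus control, with standard errors. This array term was taken from the data it is tested on, so its p-values are likely too small, by an amount not known here.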
